A study of Mus musculus with 4 samples.

Results

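The genes described here are 10 miRNA precursor genes that mark endothelial or blood cells, read in small RNA libraries of embryonic stroma. The stroma surrounds the wolffian duct, an epithelial tube that gives rise to the ureteric bud. They were taken by name, and all 10 names had a row among the 643 miRNA genes and 2976 rows of the deposited table. The endothelial genes were Mir126a, Mir221 and Mir222, the erythroid genes Mir144 and Mir451a, and the white blood cell genes Mir142, Mir155, Mir150, Mir146 (which encodes miR-146a) and Mir223. All 4 libraries came from CD1 embryos at stage E10.5 with the genotype Tbx18-Cre;CAG-tdTomato, described by the submitters as wildtype. In these embryos the Tbx18 promoter drives Cre, and the red reporter then marks the cells that have had Cre and their descendants. Reporter-positive cells were collected by flow sorting, and no other sorted population is among the samples used here. There is 1 group, so the values are levels within this population, and no label ties a library to an embryo, a litter or a pool. Each SD therefore describes how these libraries differ, which may be technical.

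A miRNA is cut from a hairpin precursor and guides silencing of mRNAs mainly through its seed, bases 2 to 8 from the 5′ end. miR-126 comes from an intron of Egfl7, a gene of the vessel lining, and is known for keeping vessels intact by raising the response to VEGF. miR-221 and miR-222 are made from 1 transcript, are found in endothelium and in many dividing cells, and restrain the receptor Kit and the cell cycle inhibitor p27. miR-144 and miR-451a are made together in red cell precursors under the factor GATA1, and miR-451a is cut by Argonaute 2 rather than by Dicer. miR-142 is found across blood lineages, miR-223 in myeloid cells, miR-150 in mature lymphocytes, miR-155 in activated immune cells, and miR-146a is induced by NF-κB and dampens its signalling. An embryo at this stage has vessels and circulating primitive red cells, while mature lymphocytes are formed later.

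RefSeq (build GRCm38.p6) holds a mature sequence for all 10 genes. For Mir126a, Mir222 and Mir150 it is the sequence of the 3′ arm (3p) alone, so no 5p seed of these genes was compared. The following are shown 5′ to 3′ with the seed in capitals, because the seeds show which members can share targets.
miR-126a-3p: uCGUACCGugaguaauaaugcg
miR-221-3p: aGCUACAUugucugcuggguuuc
miR-222-3p: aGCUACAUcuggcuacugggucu
miR-144-3p: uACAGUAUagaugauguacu
miR-451a: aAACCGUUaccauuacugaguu
miR-142a-3p: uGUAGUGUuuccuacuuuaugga
miR-155-5p: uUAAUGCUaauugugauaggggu
miR-146a-5p: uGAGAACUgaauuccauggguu
miR-146b-5p: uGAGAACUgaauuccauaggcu

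Among the members, miR-221-3p and miR-222-3p were the pair with 1 seed, and beyond it they were unlike, with the same base at 11 of 23 positions. The seed of miR-146a-5p recurs in miR-146b-5p of the gene Mir146b, which is not a member. These were alike at 20 of 22 positions, with the substitutions G18A and U21C from miR-146a-5p to miR-146b-5p, counted from the 5′ end. One other gene of the table, Mir1928, shares the seed of miR-221-3p, and it was listed at 0 in all 4 libraries. No other mature sequence in the RefSeq table shared a seed with a member's mature sequence there. The hairpin of Mir451a is shown with the mature miRNA in capitals, since its place differs from that in other hairpins.
Mir451a hairpin: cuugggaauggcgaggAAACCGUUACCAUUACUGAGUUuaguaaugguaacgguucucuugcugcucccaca
The mature miRNA takes positions 17 to 38 of 72 and so runs into the loop, whereas miR-126a-3p takes positions 46 to 67 of the 73 bases of its hairpin, on the 3′ arm. The table gives 1 value per hairpin gene, so the values below do not separate the arms.

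The levels are TPM as deposited, that is, reads per unit of gene length, scaled to a library total in which genes not used here also counted. For the miRNA genes with a nonzero value, TPM times the RefSeq length, divided by a single factor found for each library, came out as whole numbers within a tolerance of 0.01. These whole numbers were taken as the reads behind each value. Reads on miRNA genes numbered 883201, 1087240, 978210 and 146255 in libraries 1 to 4. Library 4 was thus the shallowest, and miRNA genes made up 70.3% of its TPM in the table against 86.0% to 90.7% in the others. The TPM of all miRNA genes summed to 42494, 65478, 61708 and 16399 in libraries 1 to 4. A gene can therefore be lowest in library 4 in TPM and still be highest there as a share of the miRNA total. With 3 reads as the limit that a count of 0 allows, a hairpin as long as Mir126a could have gone unseen at up to 0.161 TPM in library 1, 0.200 in library 2, 0.214 in library 3 and 0.381 in library 4. Limits and intervals here cover counting error only.

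The 10 genes spanned from among the more abundant miRNA genes to no reads at all, with the endothelial genes on top. Endothelial Mir126a averaged 374 ± 131 TPM (SD, n = 4) and ranked 29th of the 643 miRNA genes. Mir222 followed at 25.0 ± 8.97 TPM (rank 123), Mir221 at 12.0 ± 5.83 (rank 162) and Mir146 at 10.49 ± 8.52 (rank 168). Mir451a at 4.14 ± 4.85 TPM, Mir155 at 3.43 ± 1.97 and Mir142 at 1.85 ± 1.15 formed a lower set. Mir150 at 0.259 ± 0.258 and Mir144 at 0.237 ± 0.335 TPM (SD, n = 4) lay close to the limit of detection, and Mir223 was listed at 0 in every library, as were 31.6% of all miRNA genes. At 1 TPM or more in all 4 libraries, 4 of the 10 members were detected, namely Mir126a, Mir222, Mir221 and Mir146. By the same rule 33.1% of all miRNA genes were detected. With a limit of 3 reads in every library the count was 7, adding Mir451a, Mir155 and Mir142, beside 42.1% of all miRNA genes. Mir155 missed the limit of 1 TPM only through library 4, where 7 reads gave it 0.999 TPM.

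**Figure D1:**
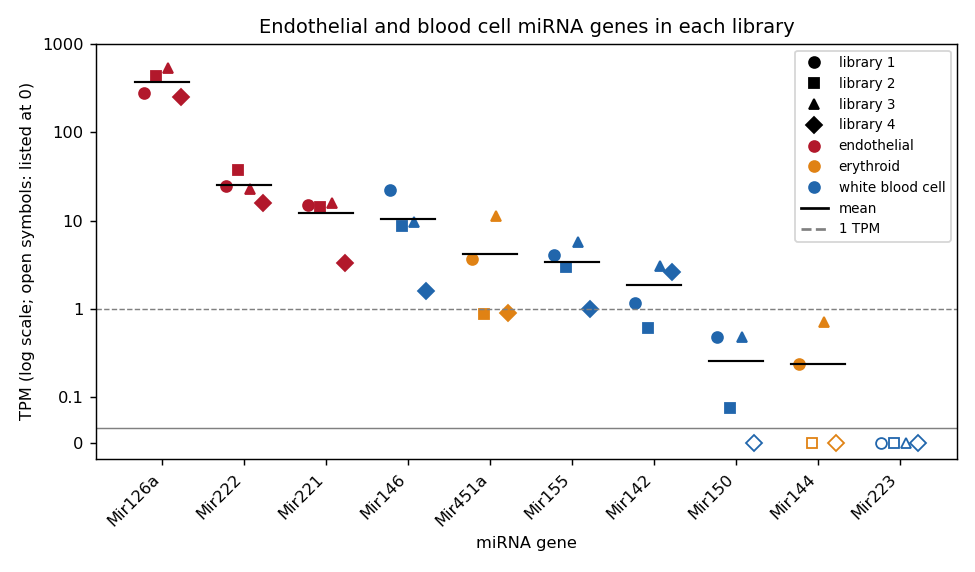
TPM on a log axis of each of the 10 miRNA genes, ordered by mean, with 1 symbol per library and a bar at the mean; open symbols below the grey line are values listed at 0. Mir126a lies between 251 and 528 TPM in all 4 libraries, above every other member, while Mir150, Mir144 and Mir223 have values of 0.

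**Figure D2:**
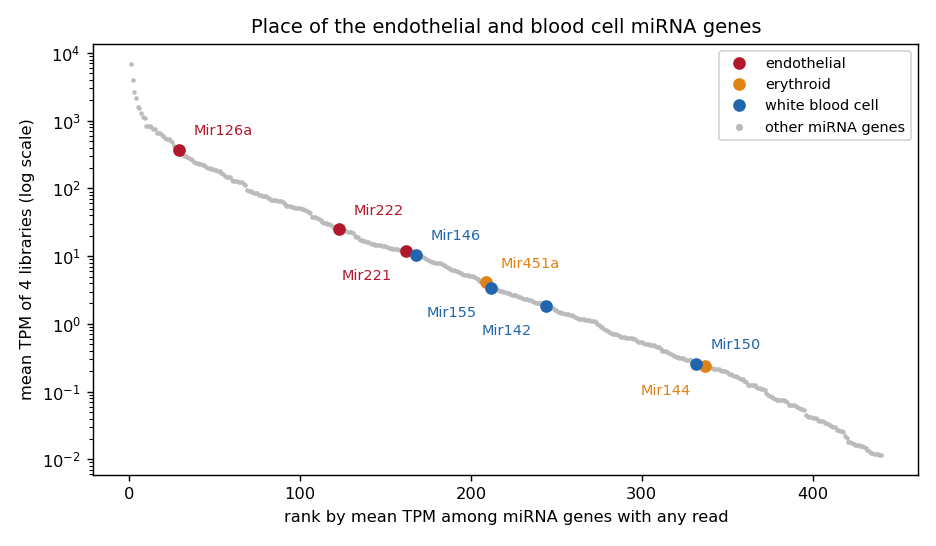
Mean TPM over the 4 libraries on a log axis against rank for the 440 miRNA genes with any read, with the members coloured by list. Mir126a is at rank 29 and the other members with reads lie from rank 123 (Mir222) to rank 337 (Mir144).

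Among the endothelial genes, Mir126a (gene ID 387145; chromosome 2, 26591357 to 26591429 of GRCm38, plus strand) lies within Egfl7, overlapping an exon of at least 1 of its transcripts in GENCODE vM21. Its level was 280, 436, 528 and 251 TPM in libraries 1 to 4, from 5226, 6541, 7391 and 1973 reads. No library was far from the others, and the highest was 2.11 times the lowest. All 4 detected members were lowest in library 4, as were 83.6% of detected miRNA genes. Its coefficient of variation of 35.1% was below that of most detected miRNA genes, whose median was 58.5%; of those 213 genes, 12 had a lower one. Mir126b, annotated on the opposite strand of the same hairpin, had no row, and the sources used here do not say whether counting used strand, so reads from the opposite strand cannot be told apart.

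The library that was highest for Mir126a depended on the scale. As a share of the TPM of all miRNA genes, Mir126a was 0.659%, 0.666%, 0.856% and 1.53% in libraries 1 to 4, so library 4, the lowest in TPM, was the highest in share. In reads per 1000000 miRNA reads (RPM), library 4 stood at 13490 with an exact 95% Poisson interval of 12901 to 14099. The interval for library 3 was 7384 to 7730, and those for libraries 1 and 2 were lower still, at 5758 to 6080 and 5871 to 6164. The gap between library 4 and the rest was therefore far outside counting error, while its cause was not tested. As a share of miRNA TPM, Mir126a had a coefficient of variation of 44.4%, above the median of 38.3% over detected miRNA genes. The share of Mir126a in library 4 was 2.10 times its mean share in the other libraries, and 23 of the 213 detected genes had a higher ratio.

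Mir221 and Mir222 lie on the minus strand of chromosome X, at 19146294 to 19146388 (gene ID 723827) and 19146893 to 19146971 (gene ID 723828), with 504 bases between them and no other annotated gene over either hairpin. Mir222 stood at 24.4, 37.2, 22.9 and 15.6 TPM in libraries 1 to 4. Mir221 stood at 14.9, 14.2, 15.6 and 3.32 TPM. Mir222 was the higher in every library, although the lowest Mir222 value, in library 4, was just under the highest Mir221 value, in library 3. Within a library, the log2 ratio of Mir221 to Mir222, with 1 TPM added to each, was -0.68, -1.33, -0.52 and -1.94, with a mean of -1.12 ± 0.65 (SD, n = 4). Flipping the signs of the ratios in an exact permutation test (two-sided) gave p = 0.13, the smallest that 4 libraries allow, so no ratio given here could pass a threshold of 0.05. The adjusted p over the 16 ratios computed was 0.222.

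Of the reads on this pair of genes, Mir221 took 42.3% in library 1, with an exact 95% binomial interval of 39.0% to 45.7%. It took 31.5% (28.5% to 34.7%) in library 2, 45.1% (41.2% to 49.1%) in library 3 and 20.4% (14.5% to 27.3%) in library 4. The intervals of libraries 1 and 3 lay above those of libraries 2 and 4, so the balance of the pair differed between libraries by more than counting error, though both hairpins come from 1 locus. In RPM, Mir222 was highest in library 4, at 909 against 355 to 557 elsewhere, while Mir221 was lowest there, at 232 against 256 to 409.

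Mir126a lay above both. Its log2 ratio to Mir222, the next in order, was 3.47, 3.52, 4.47 and 3.92 in libraries 1 to 4, with a mean of 3.84 ± 0.46 (SD, n = 4; exact sign-flip permutation p = 0.13, adjusted p = 0.222). This pair and its direction came from the order of mean TPM in these same libraries, so the p-value is no independent test of that order. Mir126a supplied 91.0% of the endothelial sum, which was 411 ± 140 TPM (SD, n = 4). Companion genes that have been linked to endothelium were also read. Of these, Mir296 (65.6 ± 29.1 TPM), Mir210, a gene induced by low oxygen (26.5 ± 12.1 TPM), and Mir130a (14.2 ± 8.90 TPM; SD, n = 4) were each detected, and Mir126b had no row. Their summed share of the miRNA total was nearly level, at 0.232%, 0.232%, 0.218% and 0.248% in libraries 1 to 4, so it did not follow the share of Mir126a in library 4.

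The erythroid genes had few reads outside libraries 1 and 3. Mir144 (gene ID 387162; 78073005 to 78073070) and Mir451a (gene ID 723870; 78073170 to 78073241) lie 99 bases apart on the plus strand of chromosome 11. Mir451a stood at 3.64, 0.878, 11.2 and 0.902 TPM in libraries 1 to 4, from 67, 13, 154 and 7 reads. Mir144 stood at 0.237 TPM in library 1 and 0.711 TPM in library 3, from 4 and 9 reads, and was listed at 0 in libraries 2 and 4. Both genes were thus highest in library 3 and next highest in library 1. Without library 3 the mean of Mir451a was 1.81 TPM and that of the erythroid sum 1.89 TPM, against 4.38 ± 5.19 TPM (SD, n = 4) with it.

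For Mir451a the differences between libraries were also larger than counting error. In RPM it stood at 157 in library 3, with an exact 95% Poisson interval of 134 to 184, and at 12.0 (6.37 to 20.4) in library 2. Library 1 lay between them at 75.9 (58.8 to 96.3). The wide interval of library 4, 19.2 to 98.6 around 47.9, overlapped those of libraries 1 and 2. Mir144 was too thinly read for such a comparison: with no read in library 4, the limit of 3 reads allowed up to 20.5 RPM there, above the 9.20 seen in library 3. Over all libraries there were 241 reads on Mir451a and 13 on Mir144. Their log2 ratio had a mean of 1.64 ± 0.92 (SD, n = 4; exact sign-flip permutation p = 0.13, adjusted p = 0.222), but its size rests on the pseudocount, at 3.47 with 0.1 TPM and 0.41 with 10 TPM added, and at 4.27 from RPM with 1 added. Mir451b, on the strand opposite Mir451a, had no row. The other erythroid hairpins read, Mir486 and its copy Mir3107, overlap each other on chromosome 8, and both were listed at 0.

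The white blood cell genes were led by Mir146. Mir146 (gene ID 387164; chromosome 11, 43374397 to 43374461, minus strand, outside annotated genes) stood at 22.1, 8.68, 9.63 and 1.57 TPM in libraries 1 to 4, from 367, 116, 120 and 11 reads. Library 1 was the highest, and without it the mean fell from 10.49 to 6.63 TPM. In RPM library 1 stood at 416 (exact 95% Poisson interval 374 to 460), against 107 (88.2 to 128) in library 2, 123 (102 to 147) in library 3 and 75.2 (37.5 to 135) in library 4. The last 3 intervals overlapped each other and lay below that of library 1.

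Mir146b, on chromosome 19, has the same seed and stood at 8.90, 21.6, 17.4 and 3.40 TPM in libraries 1 to 4. Of the reads on these 2 genes, Mir146 took 59.7% in library 1 (exact 95% binomial interval 55.7% to 63.6%). It took 19.3% (16.2% to 22.7%) in library 2, 24.8% (21.0% to 28.9%) in library 3 and 21.6% (11.3% to 35.3%) in library 4. Mir146 thus took the larger part in library 1 and the smaller part in the other libraries. The intervals of libraries 2, 3 and 4 overlapped each other and lay below that of library 1, although the values of libraries 2 and 3 each fell outside the interval of the other. Together the mature sequences differ at positions 18 and 21 alone, and the sources used here do not give how reads that fit both were counted.

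Mir155 (gene ID 387173; chromosome 16, 84714140 to 84714204, plus strand, over an exon of Mir155hg) stood at 4.03, 2.99, 5.70 and 0.999 TPM in libraries 1 to 4. Its share of miRNA reads moved less than that of Mir146. It was 75.9 RPM in library 1 and 72.6 in library 3, with intervals of 58.8 to 96.3 and 56.7 to 91.6. In library 2 it was 36.8 (26.3 to 50.1), below both, and in library 4 it was 47.9 (19.2 to 98.6), which overlapped all of them.

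Mir142 (gene ID 387160; chromosome 11, 87756864 to 87756927, plus strand, within an intron of Mir142hg) stood at 1.16, 0.608, 3.02 and 2.61 TPM, from 19, 8, 37 and 18 reads. In RPM it was 123 in library 4 (exact 95% Poisson interval 72.9 to 195), against 21.5 (12.95 to 33.6), 7.36 (3.18 to 14.5) and 37.8 (26.6 to 52.1) in libraries 1 to 3. Library 4 was above the others beyond counting error, on 18 reads. Its share of miRNA TPM there was 5.58 times the mean of the other libraries, and 5 of the 213 detected genes had a higher ratio. Mir142, with 8 to 37 reads per library, was not itself among those detected genes. Mir142b, on the opposite strand, had no row.

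Mir150 (gene ID 387168; chromosome 7, 45121757 to 45121821, outside annotated genes) had 8, 1 and 6 reads in libraries 1 to 3, or 0.481, 0.0748 and 0.481 TPM, and none in library 4. With 3 reads as the limit, library 4 allowed up to 0.428 TPM. The exact 95% Poisson intervals of library 1 (0.208 to 0.948 TPM) and library 2 (0.00189 to 0.417 TPM) overlapped, although each value lay outside the interval of the other, and these few reads set no order of the libraries. Mir223 (gene ID 723814; chromosome X, 96242817 to 96242926) had no read in any library, which by the same limit of 3 reads allowed up to 0.107, 0.133, 0.142 and 0.253 TPM. It overlaps an exon of F630028O10Rik on the same strand, whose own row was at 0 in libraries 1 to 3 and at 0.00334 TPM in library 4. Of the miRNA genes whose span overlaps another row of the table, 53.8% were listed at 0 in all libraries, against 28.4% of those that overlap none. The listed 0 of Mir223 may be limited by how reads in overlapping genes were counted, which was not tested.

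Summed over its 5 genes, the white blood cell list reached 27.8, 12.4, 18.8 and 5.18 TPM in libraries 1 to 4, a mean of 16.0 ± 9.60 TPM (SD, n = 4), of which Mir146 was 65.4%. Mir146 is not confined to blood cells, and without it the list averaged 5.54 ± 2.62 TPM (SD, n = 4), mostly from Mir155 and Mir142. Of the companion genes, Mir342 (55.4 ± 28.4 TPM), which lies within Evl, and Mir146b (12.8 ± 8.23 TPM; SD, n = 4) were detected, Mir147 and Mir21a were listed at 0, and Mir142b had no row. Counting members and companions together, 6 of 6 endothelial, 0 of 4 erythroid and 3 of 9 white blood cell genes with a row were detected, beside the 33.1% of all miRNA genes. Of the genes at 0 in these counts, Mir223, Mir486 and Mir3107 overlap another row of the table, while Mir147 and Mir21a lie within the protein-coding genes AA467197 and Vmp1, which have no row. The counts may be understated where reads in overlapping genes were left out, which was not tested.

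**Figure D3:**
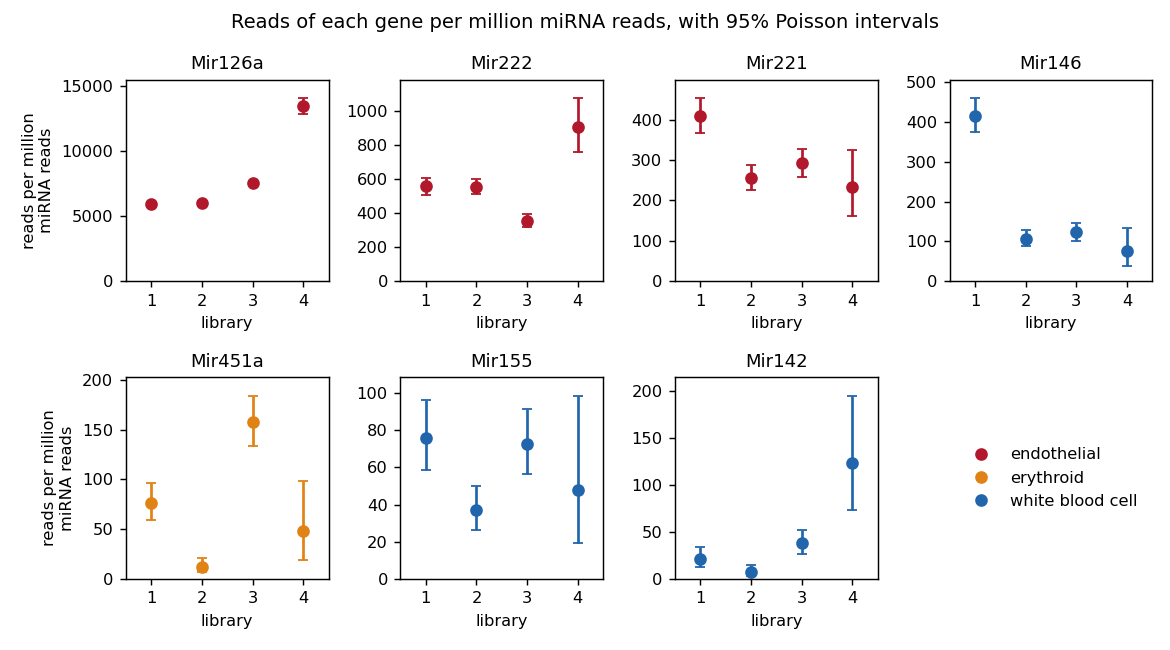
Level in RPM (reads per 1000000 miRNA reads) of the 7 members with at least 3 reads in every library, by library, with exact 95% Poisson intervals; each panel has its own axis from 0. Mir126a, Mir222 and Mir142 are highest in library 4, Mir146 in library 1 and Mir451a in library 3.

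The lists were set against each other library by library, with 1 TPM added to each sum before the log2 ratio was taken. The endothelial sum exceeded the erythroid sum by 6.04, 8.02, 5.46 and 7.15 log2 units in libraries 1 to 4, with a mean of 6.67 ± 1.14 (SD, n = 4). It exceeded the white blood cell sum by 3.48, 5.19, 4.84 and 5.45, with a mean of 4.74 ± 0.88 (SD, n = 4). The erythroid sum lay below the white blood cell sum in every library, by a mean ratio of -1.93 ± 0.99 (SD, n = 4), and came closest in library 3 at -0.62. With Mir146 left out of the white blood cell list, a choice made after seeing the data, that mean ratio was -0.68 and the erythroid sum was the higher in library 3, at 11.9 against 9.19 TPM. With the full lists, each of these ratios had 1 sign in 4 of 4 libraries, with a p of 0.13 in the same exact permutation test and an adjusted p of 0.222. The ratio without Mir146 had a p of 0.25 in that test and was not among the adjusted ratios.

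Down the order of single genes, neighbours below Mir222 and Mir221 often changed places. Neighbours were paired by mean TPM in these same libraries, the higher over the lower, so their p-values are no independent test of the order. Mir221 lay above Mir146 in 3 of 4 libraries (mean log2 ratio 0.38 ± 0.61, exact permutation p = 0.25, adjusted p = 0.364). With the TPM of Mir146b added to that of Mir146, that ratio turned to -0.82. Mir146 lay above Mir451a in 3 of 4 libraries (1.23 ± 1.31, exact permutation p = 0.25), the exception being library 3. Mir451a and Mir155 had a mean ratio of -0.10 ± 0.80 (exact permutation p = 0.625), which turned to 0.22 without library 2. Mir155 lay above Mir142 in libraries 1 to 3 and below it in library 4 (0.60 ± 1.00, exact permutation p = 0.375). Mir142 lay above Mir150 in all 4 libraries (1.104 ± 0.65, exact permutation p = 0.13). The size of that ratio rests on the pseudocount, at 2.58 with 0.1 TPM and 0.20 with 10 TPM added. The ratio of Mir150 to Mir144 was 0.04 ± 0.20 (SD, n = 4; exact permutation p = 0.75). Both genes were below the pseudocount of 1 TPM in every library, which by itself makes this ratio small. With 0.1 TPM added it was 0.28 ± 0.63, so these values cannot show whether Mir150 and Mir144 were level. Over all 16 ratios, including those to stroma genes, adjusted p-values ran from 0.222 to 0.75, and 9 ratios had 1 sign in all 4 libraries.

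The labelled cell type was checked against miRNAs known from mesenchymal stroma and smooth muscle. Mir199a-1 stood at 1093, 1114, 736 and 112 TPM in libraries 1 to 4, and Mir143 at 535, 1081, 560 and 196 TPM. Mir126a was below Mir199a-1 in libraries 1 to 3 and above it in library 4, with log2 ratios of -1.96, -1.35, -0.48 and 1.15 (mean -0.66 ± 1.35, SD, n = 4; exact permutation p = 0.375). Against Mir143 the ratios were -0.93, -1.31, -0.08 and 0.35 (mean -0.49 ± 0.76, SD, n = 4; exact permutation p = 0.375). In TPM, Mir126a was above Mir199b, by a mean of 1.99 ± 1.53, and above Mir145a, by 3.93 ± 0.80 (SD, n = 4), in 4 of 4 libraries (exact permutation p = 0.13 each). In RPM it was below Mir199b in library 1, at 5917 against 7460. The mean log2 ratio to Mir199b from RPM was 1.42 (exact permutation p = 0.25). Mir214 and Mir199a-2 were listed at 0, which need not mean absence. The sources used here do not give how reads in overlapping genes, or reads that fit several genes, were counted. The levels of the stroma genes may be limited by this, which was not tested. The other 4 stroma genes had reads in every library. In TPM, Mir126a lay below both leading stroma genes, Mir199a-1 and Mir143, in libraries 1 to 3 and above both in library 4. In RPM, which is not divided by length, it was above Mir143 in library 3 as well, at 7556 against 6913.

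As shares of miRNA TPM, the 6 stroma genes summed to 4.46%, 3.62%, 2.34% and 2.02% in libraries 1 to 4, and the 3 endothelial genes to 0.751%, 0.744%, 0.918% and 1.64%. Library 4 thus had the lowest stroma share and the highest endothelial share. The epithelial miR-200 genes, summing to 0.0917%, 0.0553%, 0.141% and 0.191%, were also highest in library 4, the shallowest library. The erythroid share was 0.00912%, 0.00134%, 0.0192% and 0.00550%, and that of the white blood cell list 0.0653%, 0.0189%, 0.0305% and 0.0316%. The erythroid share was highest in library 3 and the white blood cell share in library 1. The latter rests on Mir146: without that gene the white blood cell share was 0.0133%, 0.00561%, 0.0149% and 0.0220%, highest in library 4, with the libraries in the same order as for the endothelial share. In sorted bulk samples, fewer cells of a type and less of the miRNA per cell cannot be told apart, and the part of other cell types or of depth in these values was not tested. Of the 9 members with any read, 3 had their highest share in library 4, near the 32.3% of all miRNA genes with any read, and 7 had their highest TPM in library 3, where 43.6% of those genes did.

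**Figure D4:**
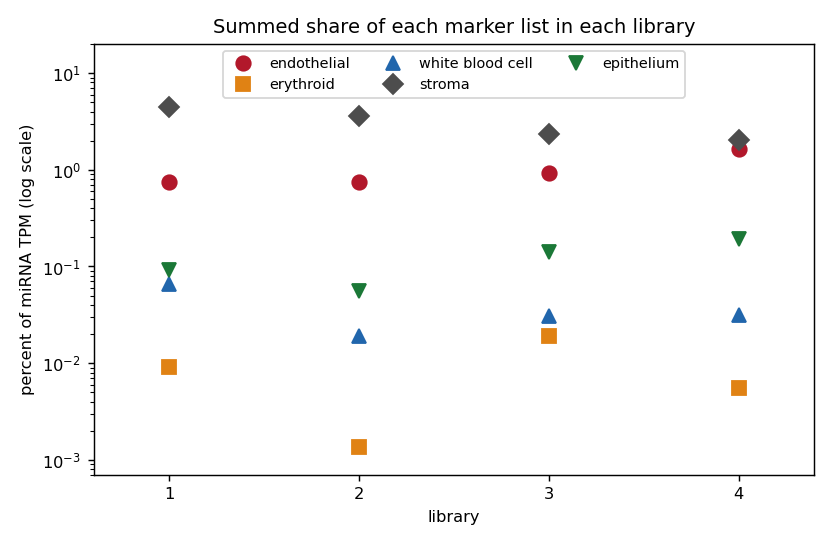
Percent of miRNA TPM, on a log axis, taken by the summed endothelial, erythroid, white blood cell, stroma and epithelium lists in each of the 4 libraries. The stroma share is lowest (2.02%) and the endothelial share highest (1.64%) in library 4, and the erythroid share ranges from 0.00134% in library 2 to 0.0192% in library 3.

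For the highest gene of each list, the miRNA genes with the most similar profile over the 4 libraries were sought by the SD of their log2 ratio, with 1 TPM added, among detected miRNA genes. With 4 libraries this is a description. For Mir126a these were Mir3102 (SD 0.23), Mir203 (0.24) and Mir301 (0.25), against a median of 0.70 over 212 genes. For Mir451a they were Mir205 (0.19), Mir96 (0.31) and Mir183 (0.49), against a median of 1.32 over 213 genes. Mir205, a miRNA of stratified epithelia, stood at 34.8, 10.1, 70.7 and 12.1 TPM in libraries 1 to 4 and so ranked the libraries as Mir144 and Mir451a did in putting library 3 first and library 1 next. For Mir146 they were Mir504 (0.32), Mir204 (0.34) and Mir667 (0.34), against a median of 1.03 over 212 genes, and each of these was highest in library 1. Mir204, for example, stood at 30.1, 9.30, 15.4 and 1.36 TPM.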

How the data were processed

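Per the labels' protocols, flow-sorted cells went straight into the lysis buffer, RNA was purified on micro-scale columns, a small RNA kit was used for the libraries, and 75 bp single reads were made. The authors deposited TPM values for 4 libraries. Per the submitters' processing notes, the build was mm10 (GRCm38), and limma is named without a version; the sources used here do not give the aligner, counter, annotation, use of strand or treatment of multiple matches. TPM favours short hairpins for equal reads.

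Rows were joined by gene ID to RefSeq genes of GRCm38.p6 (2541 of 2976 rows), with overlaps from GENCODE vM21. Mir145 and Mir486b of the marker lists are listed there as Mir145a and Mir3107. Reads were recovered from TPM and gene length for depth and alternatives, and no count model was fitted. The recovery was tested on simulated data.

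The members, marker lists and rules were chosen with earlier results of these data known. Named genes are the members, their companions, stroma markers, genes sharing a seed, overlapping rows, and the 3 genes most alike in profile to the highest member of each list. Log2 ratios used a pseudocount of 1 TPM and an exact two-sided permutation of signs, adjusted by Benjamini-Hochberg over 16 ratios. Tools were Python 3.11.15 with scipy 1.17.1, numpy 2.4.6, pandas 2.3.3 and, for plots, matplotlib 3.10.9.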

Additional observations from a re-analysis of the deposited data

Results flagged for a closer look

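Dixon's gap test (95% level) was applied over the 4 libraries to 42 sets of values, namely the TPM and the share of each member and list, and each ratio. It singles out about 5% of such sets by chance, and it singled out 3. The TPM of Mir221 was low in library 4, with a gap of 0.885 of the range, and library 4 was also the lowest in TPM for 83.6% of detected miRNA genes. The share of Mir146 in the miRNA total was high in library 1, with a gap of 0.858 of the range. The log2 ratio of Mir221 to Mir146 was low in library 1, with a gap of 0.921 of the range, and this ratio shares the values of Mir146 with the previous one.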

How the results depend on the processing

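Alternatives covered the pseudocount, reads in place of TPM, rescaling to the miRNA total, the median, detected members only, related copies, the detection limit, and leaving out each library. The count of 4 detected members became 7 at 0.5 TPM, 2 at 5 TPM (Mir126a and Mir222) and 7 with 3 reads. It was 5 at a limit of 1 TPM after rescaling to the miRNA total, and 4 to 5 without 1 library. Of all miRNA genes, 33.1% were detected at 1 TPM and 42.1% with 3 reads. Shares under the other settings were not computed, so those counts are not set against all miRNA genes. Directions reversed for Mir221 over Mir146 with Mir146b added (-0.82), for Mir451a over Mir155 with a pseudocount of 10 TPM (0.030) and without library 2 (range over left-out libraries -0.43 to 0.22), and for Mir150 over Mir144 without library 1 (range -0.035 to 0.12). No other mean ratio changed sign under these alternatives. In single libraries, the order of Mir126a with Mir143 (library 3) and with Mir199b (library 1) differed between TPM and RPM. With Mir146 left out of the white blood cell list, chosen after seeing the data, its sum was 5.54 TPM. The mean of Mir144, which is near the limit of detection, was 0.0790 TPM without library 3. Restricting the erythroid list to detected members left none, so that value was not computed; Mir126b had no row to add. No paired analysis was possible because there is 1 group. The 7 to 18 reads of Mir451a, Mir155, Mir146 and Mir142 in library 4 limit what can be said of it.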
